A study of Mus musculus with 28 samples.

Results

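Graft-origin and host cells of the same transplanted mouse kidneys were compared in the graft cortex, 3 days after transplantation. The comparison holds 6 of the 28 arrays of the series, chosen by their labels: 3 arrays of donor cells, which carried CD45.2, came with the kidney and are labelled BALB/c, and 3 arrays of host cells, which carried CD45.1, entered from the recipient and are labelled C57BL/6. Donor and host cells of replicates 1, 2 and 3 share a mouse number and so come from the same graft, here called grafts 1, 2 and 3. The labels call every sample dendritic cells; the sort took cells with CD45, CD11c and MHC class II from a digest made with collagenase IA and DNase I, and the CD45 variant alone separated donor from host. The other arrays used here are donor and host cells of the medulla of the same 3 grafts, and cells sorted from the cortex or medulla of homeostatic (untransplanted) kidneys, 4 mice of BALB/c and 4 of C57BL/6. Values are log2 array signals, so a difference of 1 is a doubling of signal, and differences are donor minus host.

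Kidneys hold a network of macrophages and dendritic cells between the tubules, and many of the macrophages share CD11c and MHC class II with dendritic cells, so a sort on these proteins takes both. Resident macrophages are known by the adhesion receptor encoded by Adgre1, the receptor for the growth factor CSF1, the fractalkine receptor and the chains of complement C1q, while conventional dendritic cells depend on the receptor Flt3. After transplantation, recipient leukocytes enter the graft through its blood vessels. Plasmacytoid dendritic cells, which carry Siglec-H in mice, and natural killer (NK) cells, which kill through perforin and granzymes, circulate in blood, and both can carry some CD11c.

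The origin of the arrays was checked with genes that separate the strains. In 5 genes, all 8 homeostatic arrays of the higher strain lay more than 2 above all 8 of the other; these genes were chosen after their values were seen. H2-Ea encodes the MHC class II E alpha chain, which C57BL/6 mice lack through a deletion. It stood at 12.89, 12.53 and 12.50 in donor cells of grafts 1, 2 and 3, against 10.18, 11.78 and 11.18 in host cells. Homeostatic arrays lay between 12.90 and 13.33 in BALB/c and between 6.25 and 6.76 in C57BL/6. Thus all 3 host arrays went against their label for H2-Ea, lying between the strains. They were nearer to BALB/c on the log2 scale, though each lay more than 1 below the lowest homeostatic BALB/c array. The donor-host difference of 1.59 ± 0.49 (SE) had an adjusted p of 0.24. Ifi202b, a BALB/c-high gene of the interferon-induced Ifi200 family, was at 10.28, 9.78 and 7.07 in donor cells and at 5.47, 7.40 and 5.34 in host cells (2.97 ± 0.59, adjusted p = 0.014, and 0.088 with mouse as a fixed block). Host graft 2 was clearly above the C57BL/6 range of 5.19 to 5.41. The C57BL/6-high gene Trim12a was at 6.50, 6.82 and 5.87 in donor cells, which is at or near the BALB/c range, and at 10.21, 7.36 and 6.81 in host cells, of which only graft 1 reached the C57BL/6 range. Slamf7 and Nlrp1c-ps, also high in C57BL/6, were at 7.24 to 8.55 and 6.82 to 6.88 in donor cells and at 8.24 to 10.28 and 6.98 to 8.74 in host cells, with no host array in the C57BL/6 range. No host array lay in the C57BL/6 range for all of these genes, and the cause was not tested. Donor and host below therefore mean the libraries labelled so. Host graft 2 had the highest H2-Ea, and without it 73 genes passed the test described below (51 higher in donor cells, 22 lower), against 95 with it, 52 being the same genes.

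**Figure D1:**
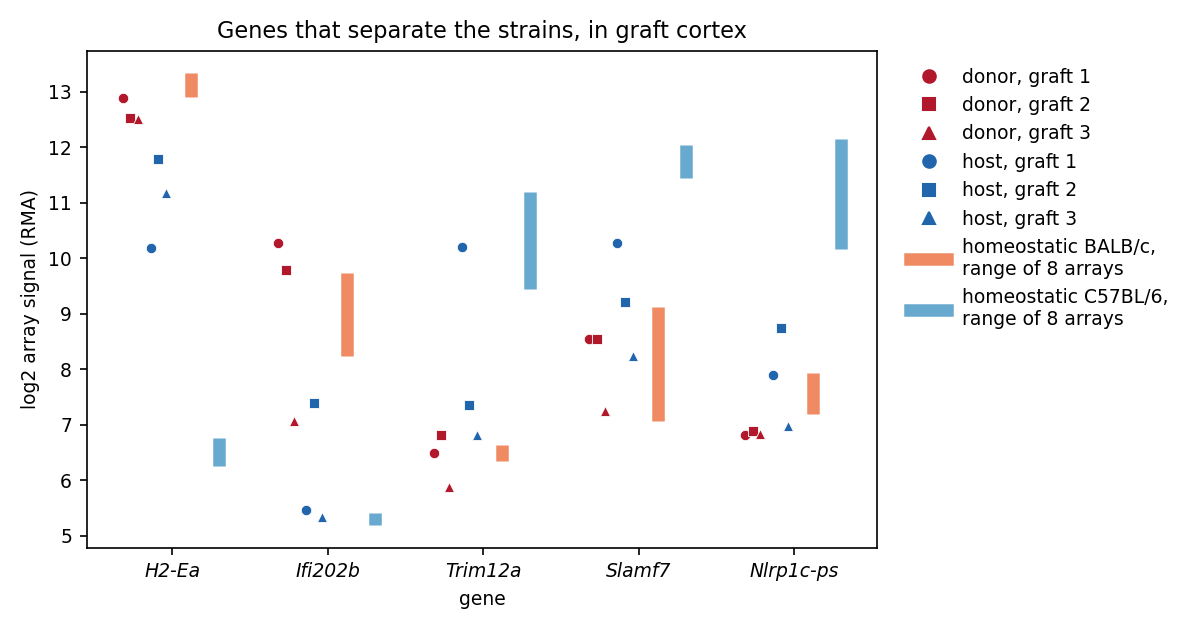
Log2 signals of the 5 strain-separating genes in the 6 graft cortex arrays (red, donor; blue, host; one marker shape per graft), with bars for the range of the 8 homeostatic BALB/c (orange) and 8 homeostatic C57BL/6 (light blue) arrays. Host arrays of H2-Ea lie at 10.18 to 11.78, far above the C57BL/6 bar that ends at 6.76.

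The arrays also differed in what else they carried. Ptprc (CD45) was at 12.31, 11.96 and 11.82 in donor cells and at 12.66, 12.11 and 10.35 in host cells. Itgax (CD11c) was at 10.23, 9.16 and 10.67 in donor cells and at 10.62, 9.14 and 7.70 in host cells, and H2-Ab1 (MHC class II) at 11.07 to 11.25 in donor cells and 11.23 to 12.57 in host cells. The host array of graft 3 was the lowest host array for all 3 of these genes of the sort, and its mean over 22 leukocyte-wide genes was 9.16, against 11.11 and 10.12 in the other host arrays. Over 17 proximal tubule genes the mean lay between 11.06 and 11.98 in donor cells and between 10.70 and 12.02 in host cells. Tubule transcripts were thus high in all 6 arrays. Their median difference was 0.06 and 0 of the 17 passed, against 0.663% of all genes. The donor array of graft 3 had the lowest weight of the 6, at 0.30, when arrays were weighted by how well they fitted their group.

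Of 14325 genes tested, 95 (0.663%) differed between donor and host cells of graft cortex at an adjusted p under 0.05 (limma, Benjamini-Hochberg, mouse as a random block, all 28 arrays sharing the variance), and 950 had an unadjusted p under 0.05. There were 66 higher in donor cells (0.461%) and 29 lower (0.202%), with median differences of 2.10 and -1.74, against -0.02 over all genes. In 61 of the 66 the lowest donor array lay above the highest host array (4.48% of all genes did so), and in 28 of the 29 the highest donor array lay below the lowest host array (2.94% of all genes). The sign was the same in all 3 grafts for all 95, which held for 12.7% of all genes upward and 12.1% downward. Of the 66, 9 exceeded the signal filter in 3 arrays only through the donor cortex arrays, and of the 29, 3 (Gria3, Ncr1 and Olfr164) only through the host cortex arrays, so that such genes could enter the test only by being high in that group. Without any 1 of the 6 arrays, 29 of the 66 and 8 of the 29 kept their call each time. The precision rests on 3 arrays a group and on the variance borrowed from the other 22: with mouse as a fixed block 48 genes passed (38 higher, 10 lower), and from the 6 arrays alone 4 passed without a block and 0 with it, with 896 at an unadjusted p under 0.05. The 4 were C1qc, C3ar1, Ncr1 and Olfr164, of which Ncr1 and Olfr164 entered the test only through the host cortex arrays. Each SE given here uses a gene's variance over all 28 arrays and does not measure the spread of the 6.

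The 3 genes with the highest donor minus host difference were C3ar1 and C1qc, of the complement system, and Adgre1, of resident macrophages. C3ar1, the receptor for the complement fragment C3a, was at 12.23, 11.99 and 11.71 in donor cells of grafts 1, 2 and 3, against 6.70, 7.48 and 6.60 in host cells, a difference of 5.05 ± 0.30 (SE; adjusted p = 3.1e-10). C1qc, a chain of the complement recognition protein C1q, was at 12.76, 12.17 and 12.34 in donor cells, against 7.27, 7.39 and 7.55 in host cells (5.02 ± 0.25, adjusted p = 1.9e-11). For both genes every donor array stood more than 4 above every host array. Homeostatic cortex held C3ar1 at 12.45 ± 0.11 (SD, n = 4) in BALB/c and 12.59 ± 0.08 in C57BL/6, and C1qc at 12.59 ± 0.07 and 12.89 ± 0.08, so donor cells were near the homeostatic level of both strains and host cells far below it. Mrc1, the mannose receptor CD206, was at 11.17, 11.20 and 9.16 in donor cells, against 6.28, 7.24 and 7.13 in host cells (3.63 ± 0.36, adjusted p = 3.9e-06), the donor array of graft 3 being the lowest of its group by 2 units. The 250 bases before the annotated start of these 3 genes are shown because C3ar1 and C1qc have the highest donor minus host differences and Mrc1 is a macrophage receptor; sequences are from RefSeq, build GRCm38.p6, read 5′ to 3′ on the gene's strand, and capitals mark matches, on either strand, to GAGGAA, the core of sites of the myeloid factor PU.1.
C3ar1, chr6:122856158-122856407, minus strand: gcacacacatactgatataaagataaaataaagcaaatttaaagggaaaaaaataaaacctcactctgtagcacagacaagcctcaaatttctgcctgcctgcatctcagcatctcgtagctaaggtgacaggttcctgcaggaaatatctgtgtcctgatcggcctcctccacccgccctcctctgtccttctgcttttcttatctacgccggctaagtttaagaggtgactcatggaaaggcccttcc
C1qc, chr4:136892915-136893164, minus strand: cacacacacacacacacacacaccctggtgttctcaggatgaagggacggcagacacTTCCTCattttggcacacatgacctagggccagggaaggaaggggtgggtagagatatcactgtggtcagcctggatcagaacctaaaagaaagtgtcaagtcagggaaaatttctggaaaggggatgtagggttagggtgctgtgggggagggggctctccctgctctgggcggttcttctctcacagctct
Mrc1, chr2:14229164-14229413, plus strand: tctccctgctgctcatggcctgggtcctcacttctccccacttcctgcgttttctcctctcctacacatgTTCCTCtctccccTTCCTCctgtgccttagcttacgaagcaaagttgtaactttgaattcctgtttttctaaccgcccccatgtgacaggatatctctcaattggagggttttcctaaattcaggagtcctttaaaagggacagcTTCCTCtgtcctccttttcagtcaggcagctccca
The C1qc window holds 1 match, the Mrc1 window 3 and the C3ar1 window 0. Such windows held a match in 23.1% of the 27025 genes of the RefSeq table, in 22 of the 55 donor-high genes that have a window and in 5 of 24 donor-low genes; a match is a run of letters, not a shown site.

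The gene lists were chosen with earlier results of these data known, so their counts describe the data and are not independent support. Over all genes tested, 0.461% were higher in donor cells and 0.202% lower, with a median difference of -0.02. Of 19 resident macrophage genes tested, 7 were higher in donor cells and 0 lower. The median of the 19 was 0.29, and the other 12 did not pass. Besides C1qc and Mrc1, the 7 were Adgre1, C1qa, Csf1r, Cx3cr1 and Fcgr1. Adgre1, that adhesion receptor, was at 11.36, 10.55 and 10.52 in donor cells, against 5.89, 7.45 and 6.61 in host cells (4.16 ± 0.43, adjusted p = 4.3e-06). Csf1r, the receptor that macrophages need for survival, was at 11.41, 10.53 and 11.17 in donor cells, against 8.59, 8.43 and 7.65 in host cells (2.81 ± 0.25, adjusted p = 7.5e-07). Neither gene's groups overlapped. C1qa differed by 3.19 ± 0.42 (adjusted p = 0.00011), and C1qb, the remaining C1q chain, by 1.77 ± 0.46, which did not pass (adjusted p = 0.11), its host arrays at 8.99, 9.93 and 7.78 being spread over 2 units. Cx3cr1, the fractalkine receptor, was at 11.98, 10.99 and 10.37 in donor cells, against 8.47, 9.24 and 8.82 in host cells (2.27 ± 0.30, adjusted p = 0.00011). Fcgr1, the high-affinity IgG receptor CD64, differed by 1.64 ± 0.38 (adjusted p = 0.045) and lost its call without any of 4 arrays (adjusted p up to 0.28) and with mouse as a fixed block (adjusted p = 0.22). List members that did not pass included Mertk, a receptor for dying cells, at 0.01, Maf at 0.15 and Cd81 at 0.29, each with an adjusted p of 1.0. In bulk samples such as these, fewer cells of a type and less RNA per cell cannot be told apart. Without any 1 array, 6 to 8 of the 19 passed.

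**Figure D2:**
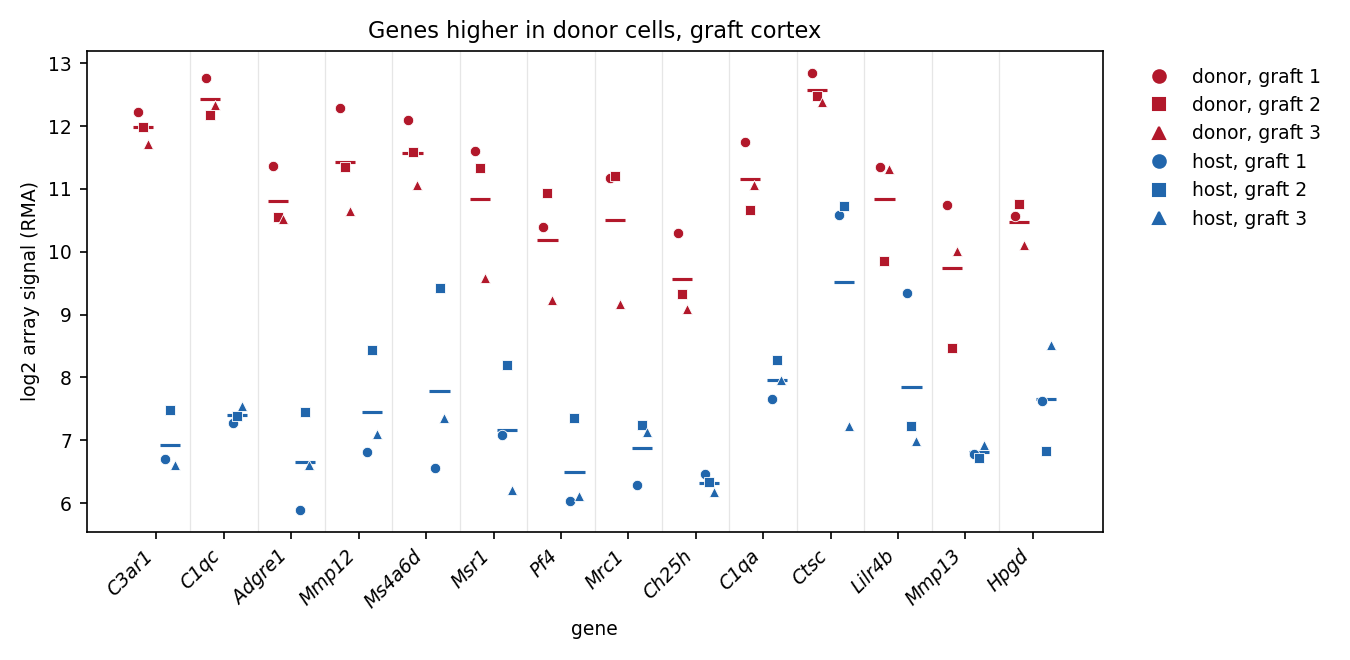
Log2 signals of the 14 genes with the highest donor minus host difference under the naming rule; per gene, the 3 donor arrays (red) stand left of the 3 host arrays (blue), marker shapes give the graft and bars the group mean. C3ar1 and C1qc separate most, and the donor array of graft 3 is the lowest donor array for Msr1, Pf4 and Mrc1.

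In the complement list, 4 of 13 genes were higher in donor cells and 0 lower (median 0.21): C3ar1, C1qa, C1qc and C5ar1, the receptor for C5a. Of all genes tested, 0.461% were higher. C1qa and C1qc are in the resident macrophage list too. C5ar1 was at 9.12, 7.88 and 9.44 in donor cells, against 6.53, 6.46 and 6.87 in host cells (2.19 ± 0.45, adjusted p = 0.017). Its call was lost without any of 4 arrays, at an adjusted p of 0.059 to 0.11.

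Of 19 scavenger and phagocytic receptor genes tested, 2 were higher in donor cells, Msr1 and Mrc1, and 0 lower, with a median of 0.15. Of all genes tested, 0.461% were higher. Mrc1 is in the resident macrophage list too. Msr1, the class A scavenger receptor, was at 11.61, 11.33 and 9.58 in donor cells, against 7.08, 8.20 and 6.20 in host cells (3.68 ± 0.60, adjusted p = 0.0019). Mmp12, the macrophage elastase, was at 12.29, 11.35 and 10.65 in donor cells, against 6.81, 8.44 and 7.10 in host cells (3.98 ± 0.47, adjusted p = 3.8e-05). Both were separated in every graft, with host graft 2 the highest host array. Mmp13, a collagenase, was at 10.74, 8.47 and 10.01 in donor cells, against 6.78, 6.72 and 6.92 in host cells (2.93 ± 0.40, adjusted p = 0.00017). Its donor arrays lay below the homeostatic cortex, where Mmp13 stood at 12.88 ± 0.26 in BALB/c and 12.88 ± 0.07 in C57BL/6 (SD, n = 4 each). Ctsc, the protease cathepsin C, was at 12.85, 12.47 and 12.38 in donor cells, against 10.59, 10.72 and 7.22 in host cells (3.06 ± 0.55, adjusted p = 0.0047). Here host graft 3 set much of the size: without that array the difference was 1.92, and with mouse as a fixed block the adjusted p was 0.051.

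Ch25h, which makes 25-hydroxycholesterol, was at 10.30, 9.32 and 9.09 in donor cells, against 6.46, 6.33 and 6.17 in host cells (3.25 ± 0.42, adjusted p = 0.00011). Ms4a6d, a membrane protein of myeloid cells, differed by 3.80 ± 0.68 (adjusted p = 0.0047), its host arrays at 6.55, 9.43 and 7.36 being uneven. The C-type lectin and immunoglobulin-like receptors Lilr4b, Lilrb4a, Siglece and Clec4a1 were higher by 2.99 ± 0.47, 1.90 ± 0.36, 2.61 ± 0.58 and 2.29 ± 0.53. Of these only Lilr4b kept its call without each array in turn. Siglece and Clec4a1 also missed the threshold with mouse as a fixed block (adjusted p = 0.068 and 0.096). Of 19 inhibitory paired receptors tested, which leave out Lilr4b, the other 3 were higher and 0 lower, with a median of 0.53, against 0.461% of all genes higher. Pf4, a chemokine, and Hpgd, which inactivates prostaglandins, differed by 3.68 ± 0.73 and 2.83 ± 0.58 (adjusted p = 0.013 and 0.017), and neither passed with mouse as a fixed block (adjusted p = 0.084 and 0.14).

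Cd14, the lipopolysaccharide co-receptor, was at 11.26, 10.65 and 10.95 in donor cells, against 8.48, 9.42 and 7.44 in host cells (2.51 ± 0.38, adjusted p = 0.00078). Lyz2, lysozyme, was at 12.01, 11.52 and 10.74 in donor cells, against 8.68, 9.28 and 8.87 in host cells (2.48 ± 0.35, adjusted p = 0.00030), and was the only monocyte-list gene of 13 that passed. Itgam, the CD11b chain, was at 10.09, 9.72 and 8.79 in donor cells and at 7.76, 7.60 and 7.42 in host cells (1.94 ± 0.30, adjusted p = 0.0010). Apoe, a lipid carrier, was higher by 1.41 ± 0.21 (adjusted p = 0.00057), and Itga9, an integrin chain, by 1.66 ± 0.37 (adjusted p = 0.033, and 0.13 with mouse as a fixed block). The classical monocyte receptor Ccr2 was at 11.98, 11.43 and 10.86 in donor cells and at 11.91, 10.03 and 10.21 in host cells (0.71 ± 0.45, adjusted p = 0.99), so donor and host arrays overlapped. Over the Fc receptor and Toll-like receptor list 2 of 16 were higher, Cd14 and Fcgr1, and the list's median was 0.85, against 0.461% of all genes higher. Fcgr1 is in the resident macrophage list too.

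Several genes of NK cells and plasmacytoid dendritic cells were lower in donor cells. Gzmb, which encodes the cytotoxic protease granzyme B, was at 6.58, 6.57 and 6.96 in donor cells of grafts 1, 2 and 3, against 11.49, 11.25 and 7.96 in host cells, a difference of -3.53 ± 0.52 (SE; adjusted p = 0.00055). Host grafts 1 and 2 stood more than 4 above their donor arrays, and host graft 3 by 1.00. From the 6 arrays alone without a block, Gzmb did not pass (adjusted p = 0.89). Ncr1, the NK receptor NKp46, was at 6.26, 6.12 and 6.23 in donor cells, against 8.56, 8.81 and 8.72 in host cells (-2.50 ± 0.44, adjusted p = 0.0039), a separation of the same size in every graft. Ncr1 exceeded the signal filter only through the host cortex arrays, so it could enter the test only by being high there. With no filter its adjusted p was 0.0048. Siglech, which encodes Siglec-H, was at 7.82, 7.87 and 7.75 in donor cells, against 12.78, 11.01 and 8.19 in host cells (-2.85 ± 0.59, adjusted p = 0.018, and 0.088 with mouse as a fixed block). Its host arrays ran over 4 units and its donor arrays lay close together, and it did not pass from the 6 arrays alone. Donor means of these genes lay below the homeostatic means, which were 7.19 and 6.95 for Gzmb, 7.55 and 6.50 for Ncr1 and 8.73 and 7.97 for Siglech in BALB/c and C57BL/6. For Gzmb and Ncr1, every donor array lay under the signal filter of the donor cortex arrays (7.269 to 7.454). Their homeostatic means were near or under that of the homeostatic cortex arrays (7.327 to 7.605). Differences among such low signals do not show a loss from the homeostatic level. The windows of Gzmb and Siglech are shown for the leading NK and plasmacytoid genes; capitals mark matches, on either strand, to CAGNTG, an E-box, or AGGTGTGA, a T-box half-site, motifs of factors known in these lineages.
Gzmb, chr14:56262335-56262584, minus strand: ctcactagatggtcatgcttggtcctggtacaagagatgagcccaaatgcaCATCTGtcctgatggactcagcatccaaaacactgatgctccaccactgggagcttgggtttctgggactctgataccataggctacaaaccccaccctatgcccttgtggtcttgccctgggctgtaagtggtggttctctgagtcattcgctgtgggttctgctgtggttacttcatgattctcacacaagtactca
Siglech, chr7:55767934-55768183, plus strand: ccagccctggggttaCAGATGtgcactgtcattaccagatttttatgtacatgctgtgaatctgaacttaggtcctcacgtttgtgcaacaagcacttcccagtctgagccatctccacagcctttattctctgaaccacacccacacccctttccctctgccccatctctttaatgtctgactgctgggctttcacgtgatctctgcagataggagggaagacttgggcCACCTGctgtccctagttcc
The Gzmb window holds 1 E-box match and the Siglech window 2, and neither holds the T-box letters. An E-box match was present in 44.5% of all windows, in 27 of 55 donor-high genes and in 15 of 24 donor-low genes, and the T-box letters in 1.14%, in 0 of 55 and in 1 of 24.

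Of 8 NK cell genes tested, 4 were lower in donor cells and 0 higher, with a median of -2.32: Gzmb, Ncr1, Nkg7 and Gzma. The list held 16 genes, of which 12 had a probeset. Those too dim for the signal filter were not tested, so the share and the median leave them out. Of all genes tested, 0.202% were lower. Ncr1 entered the test only through the host cortex arrays. Nkg7, a protein of cytotoxic granules, was at 7.22, 7.75 and 7.49 in donor cells, against 9.31, 9.13 and 10.47 in host cells (-2.15 ± 0.45, adjusted p = 0.019). Gzma, granzyme A, was at 6.99, 7.89 and 6.59 in donor cells, against 11.79, 11.73 and 7.80 in host cells (-3.28 ± 0.75, adjusted p = 0.040), so that its groups overlapped through host graft 3. Prf1, perforin, was at 7.45, 7.15 and 7.63 in donor cells and at 7.99, 7.98 and 7.63 in host cells and did not pass (adjusted p = 0.42). The mean of the 8 genes was 7.00 to 7.07 over the donor arrays and 9.76, 9.41 and 8.21 over host grafts 1, 2 and 3. Of the 8 genes, 2 or 3 passed without any 1 array other than host graft 3, 5 passed without host graft 3, and 2 with mouse as a fixed block, under which Nkg7 and Gzma had adjusted p of 0.14 and 0.16.

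Of 11 plasmacytoid dendritic cell genes tested, 4 were lower in donor cells and 0 higher, with a median of -1.18: Siglech, Ccr9, Bst2 and Cox6a2. Of all genes tested, 0.202% were lower. Ccr9, a chemokine receptor of gut homing and of these cells, was at 6.46, 6.60 and 6.35 in donor cells, against 12.00, 9.77 and 7.12 in host cells (-3.16 ± 0.62, adjusted p = 0.013). Bst2, tetherin, was at 8.83, 9.21 and 8.82 in donor cells, against 11.28, 11.29 and 9.51 in host cells (-1.74 ± 0.34, adjusted p = 0.013). In all 4 genes host graft 3 was the lowest host array. The mean of the 11 genes was 8.22 to 8.58 over the donor arrays and 10.60, 9.69 and 8.37 over host grafts 1, 2 and 3, so host graft 3 lay inside the donor range. With mouse as a fixed block 0 of the 11 passed, and 0 passed without donor graft 1, host graft 1 or host graft 2, whereas 7 passed without host graft 3. Tcf4, the factor that specifies these cells, differed by -1.26 (adjusted p = 0.63) and Flt3, at 7.39, 6.90 and 7.57 in donor cells and 11.53, 9.01 and 7.50 in host cells, by -2.06 ± 0.59 (adjusted p = 0.17).

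**Figure D3:**
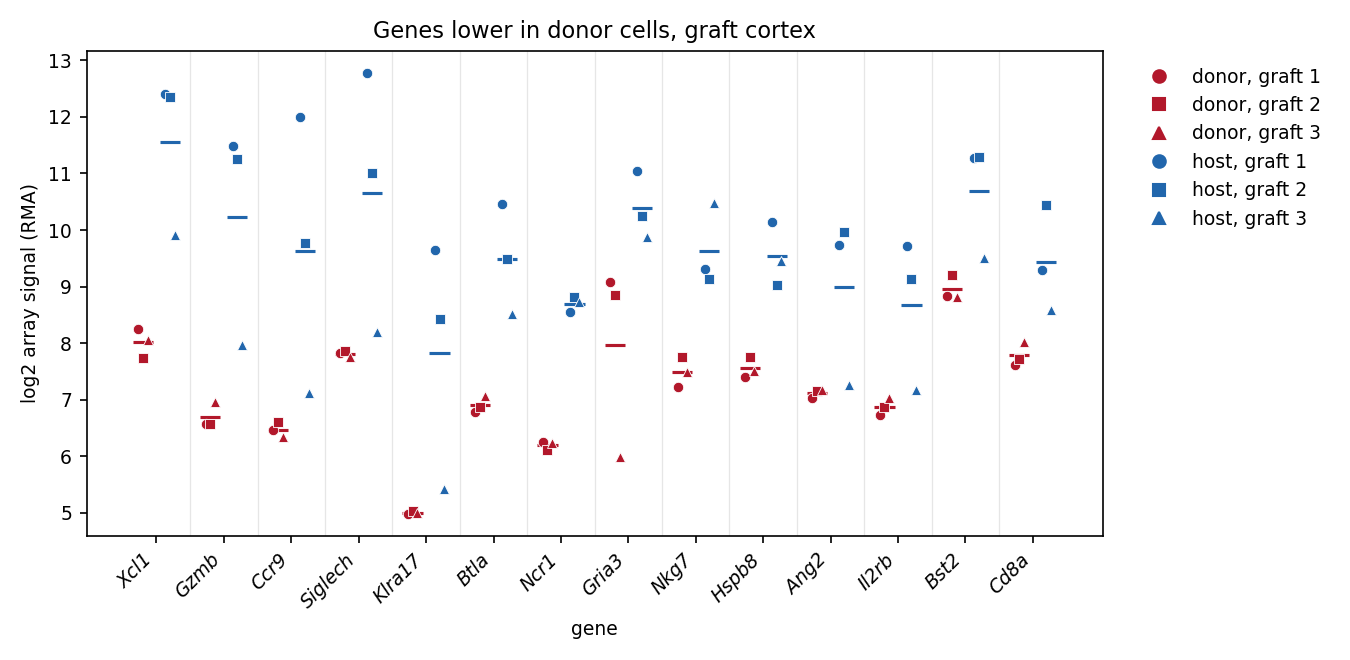
Log2 signals of the 14 genes with the lowest donor minus host difference under the same rule, with donor arrays (red) left of host arrays (blue), marker shapes for grafts and bars for means. Donor arrays lie close together for most genes, while the host array of graft 3 (triangle) is often the lowest host array, as for Gzmb and Siglech.

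Other genes lower in donor cells lay outside these lists. Xcl1, the chemokine lymphotactin, was at 8.26, 7.73 and 8.05 in donor cells, against 12.41, 12.36 and 9.91 in host cells (-3.54 ± 0.78, adjusted p = 0.030), and lost its call without any of 5 arrays (adjusted p 0.068 to 0.19) and with mouse as a fixed block (adjusted p = 0.084). Btla, an inhibitory receptor of lymphocytes and dendritic cells, was at 6.78, 6.88 and 7.07 in donor cells, against 10.46, 9.49 and 8.51 in host cells (-2.57 ± 0.34, adjusted p = 0.00011). Hspb8, a small heat shock protein, was at 7.40, 7.76 and 7.51 in donor cells, against 10.15, 9.03 and 9.46 in host cells (-1.99 ± 0.20, adjusted p = 4.3e-06). Both kept their calls without each array in turn and their groups were more than 1 apart. Gria3, a glutamate receptor subunit, was at 9.08, 8.85 and 5.99 in donor cells, against 11.05, 10.25 and 9.87 in host cells (-2.42 ± 0.44, adjusted p = 0.0057, and 0.053 with mouse as a fixed block). Il2rb, the interleukin-2 receptor beta chain, Klra17, the receptor Ly49Q of plasmacytoid cells, Cd8a and Ang2, a member of the angiogenin ribonuclease family, differed by -1.80 ± 0.41, -2.82 ± 0.63, -1.66 ± 0.37 and -1.87 ± 0.38, and each lost its call without any of 4 or 5 of the 6 arrays and with mouse as a fixed block (adjusted p 0.11 to 0.22). The largest difference of all belonged to Olfr164, an olfactory receptor by name, which the naming rule left out and which is given after its values were seen. It was at 5.40, 5.82 and 5.90 in donor cells, against 11.73, 10.47 and 10.57 in host cells (-5.22 ± 0.59, adjusted p = 1.9e-05), and at 5.82 and 5.92 in homeostatic BALB/c and C57BL/6 cortex. Gria3 and Olfr164 could enter the test only by being high in the host cortex arrays.

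Many groups of genes showed no gene or few genes that passed. Of all genes tested 0.663% passed, so a count of 0 in lists this short is near that share and is no result about them. MHC class II presentation had 0 of 13 (median 0.05), MHC class I presentation 0 of 13 (-0.12), the interferon-gamma response 0 of 18 (0.37) and the type I interferon response 0 of 27 (0.16). The interferon-induced chemokine Cxcl9 was at 12.37, 11.88 and 10.04 in donor cells and at 11.47, 10.42 and 9.82 in host cells (0.86 ± 0.53, adjusted p = 0.98), so its groups overlapped at high levels. Of 14 type 1 conventional dendritic cell genes, Cadm1, an adhesion molecule, was higher in donor cells (1.85 ± 0.22, adjusted p = 3.8e-05) and Cd8a lower, while Clec9a, a receptor for dead cells, ran over 11.12, 9.63 and 7.13 in donor cells and 12.16, 9.01 and 7.10 in host cells, varying more between grafts than between origins. Type 2 conventional dendritic cell genes (0 of 11), pan dendritic cell genes (0 of 11, median -0.53), T cell genes (0 of 11, median -0.36), B cell genes (0 of 9) and neutrophil genes (0 of 6) had none. Cd3g, a T cell receptor chain, was at 6.05, 6.19 and 6.52 in donor cells and at 9.87, 6.99 and 6.68 in host cells, so that 1 host array stood out (-1.59, adjusted p = 0.99). A p that missed the threshold does not show that donor and host cells were alike.

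Some members of lists with 0 passing lay close to the threshold or differed by a large amount. Il1b, the cytokine interleukin-1 beta, was at 12.03, 9.23 and 10.09 in donor cells and at 8.91, 7.81 and 8.03 in host cells (2.20 ± 0.53, adjusted p = 0.055), without overlap. Mgl2, a lectin of type 2 dendritic cells and macrophages, was at 9.63, 8.52 and 9.24 in donor cells and at 7.17, 6.59 and 6.74 in host cells (2.30 ± 0.54, adjusted p = 0.052), also without overlap. Both stood on the donor-high side in each graft. Cd86, a costimulatory ligand, was at 10.96, 10.10 and 9.65 in donor cells and at 10.28, 7.46 and 7.65 in host cells (1.77 ± 0.55, adjusted p = 0.26), and the maturation list had 0 of 18 and a median of 0.22. Lsp1, a leukocyte actin-binding protein, was at 10.10, 9.83 and 8.68 in donor cells and at 12.54, 11.65 and 10.15 in host cells (-1.91 ± 0.53, adjusted p = 0.14), lower in the donor array of every graft. Il15, a cytokine that NK cells need, was at 8.27, 7.66 and 6.92 in donor cells and at 6.87, 9.36 and 9.98 in host cells (-1.12 ± 0.56, adjusted p = 0.81), with opposite signs between grafts. Cd209a, a lectin of dendritic cells, was at 7.13, 7.23 and 7.66 in donor cells and at 10.61, 8.30 and 7.71 in host cells (-1.54 ± 0.63, adjusted p = 0.57), host graft 1 being far the highest. Lists of the loop of Henle and distal tubule (0 of 13), collecting duct (0 of 14), endothelium (0 of 14), and fibroblasts and pericytes (0 of 11) had medians between -0.16 and -0.03. Dissociation stress genes (0 of 19) had a median of -0.06 and hypoxia and glycolysis genes (0 of 17) of 0.08. Since 0.663% of all genes passed, these counts of 0 are near the share over all genes.

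The cell cycle list stood out by its sign. All 25 genes tested had a positive difference, 15 in all 3 grafts, with a median of 0.92, but only Bub1b, of the spindle checkpoint, passed. Over all genes 46.4% had a positive difference and 12.7% were above in all 3 grafts. Bub1b was at 10.10, 8.75 and 9.16 in donor cells, against 8.43, 7.15 and 7.10 in host cells (1.78 ± 0.35, adjusted p = 0.013), and lost its call without any of 3 arrays (adjusted p 0.057 to 0.10). Mki67, a marker of dividing cells, was at 10.77, 9.57 and 8.56 in donor cells and at 8.35, 8.41 and 7.37 in host cells (1.59 ± 0.40, adjusted p = 0.087). The list's mean was 9.95, 8.88 and 8.28 in donor cells of grafts 1, 2 and 3 and 8.68, 7.86 and 7.88 in host cells, and without donor graft 1 its median was 0.45. The genes of such a list move together, so their number is not that of independent observations. The list was also chosen with earlier results of these data known.

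**Figure D4:**
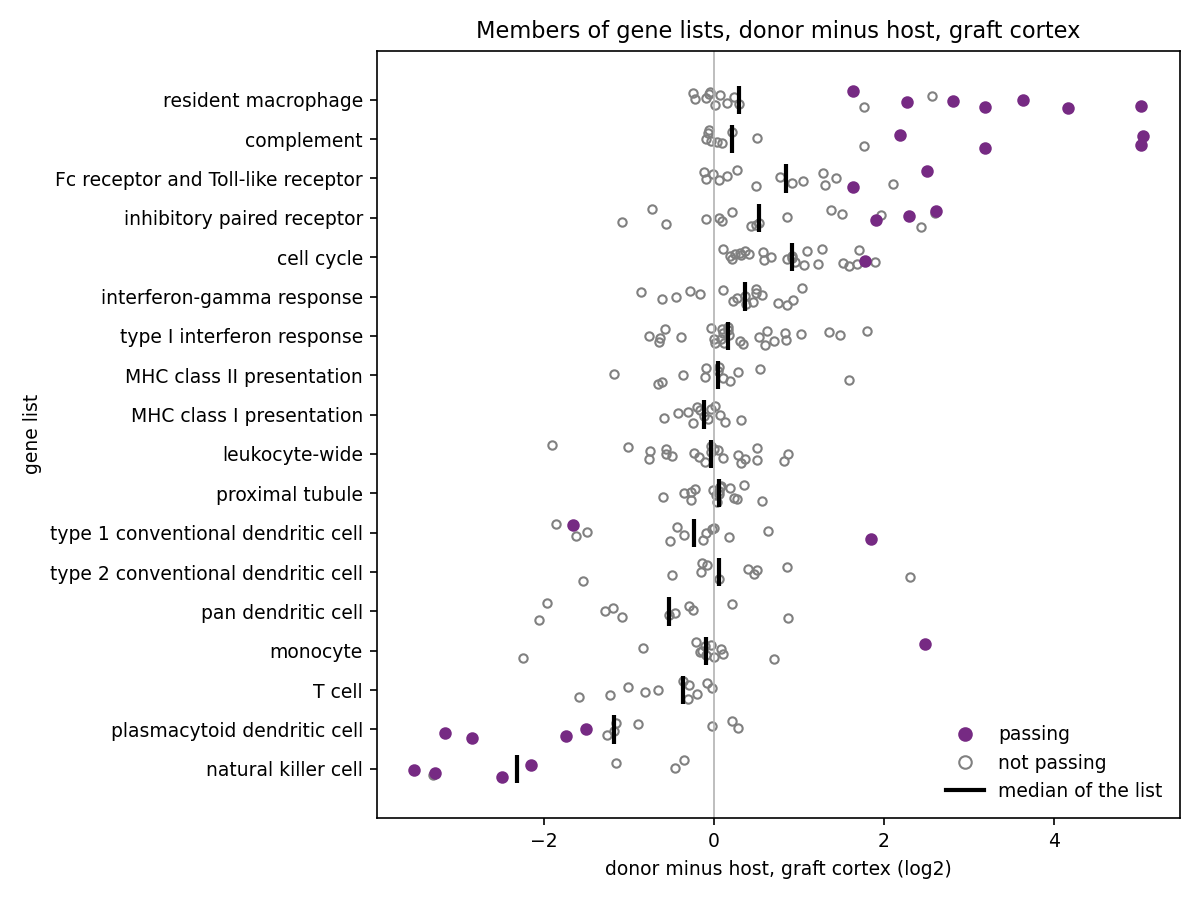
Donor minus host difference (log2) of each tested member of 18 gene lists in graft cortex, with filled points for members that passed, open points for those that did not, and a bar at the list's median. NK cell genes have a median of -2.32, plasmacytoid dendritic cell genes of -1.18 and cell cycle genes of 0.92, while the resident macrophage median is 0.29 with 7 filled points above 1.6.

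The medulla of the same grafts was sorted and measured on other arrays, and the genes that passed there were set beside those of the cortex. There 100 genes passed (0.698%), 69 higher in donor cells (0.482%) and 31 lower (0.216%). Of the 66 donor-high cortex genes, 26 were higher in the medulla too, which is 39.4% of the cortex genes and 37.7% of the medulla genes. Of the 29 donor-low cortex genes 0 passed in the medulla, with a median difference there of -0.06. C3ar1 differed in the medulla by 4.63 ± 0.30 (adjusted p = 1.3e-09), C1qc by 3.88 ± 0.25 (adjusted p = 1.3e-09) and Mrc1 by 5.23 ± 0.36 (adjusted p = 3.2e-09), while Gzmb differed by -0.34 ± 0.52, Siglech by -0.42 ± 0.59 and Ncr1 by 0.10 ± 0.44, each with an adjusted p of 1.0. The leukocyte-wide list had a median of 0.63 in the medulla, with 4 of 22 genes higher in donor cells, against -0.04 and 0 of 22 in the cortex.

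The difference between regions was tested itself, as the donor-host difference of the cortex minus that of the medulla. It passed in 18 genes (0.126%), 10 higher (0.0698%) and 8 lower (0.0558%). For Btla it was -2.57 ± 0.47 (adjusted p = 0.024), since host cells were at 9.49 ± 0.97 (SD, n = 3) in the cortex and 7.08 ± 0.14 in the medulla and donor cells at 6.91 ± 0.15 and 7.08 ± 0.28. For Hspb8 it was -2.02 ± 0.29 (adjusted p = 0.0021). The same test did not pass for Gzmb (adjusted p = 0.11), Ncr1 (0.13) or Siglech (0.50), so a regional difference is not shown for them. The leukocyte-wide genes Lcp1 and Cd52 differed by 3.29 and 3.31 in the medulla and by 0.37 and 0.11 in the cortex. The median of that list in the medulla was 0.63. Fewer leukocyte transcripts in host medulla arrays and a regional difference of Btla or Hspb8 cannot be told apart here. Tmem273, a membrane protein, was higher by 2.72 ± 0.34 in the cortex and differed by 0.12 ± 0.34 in the medulla (2.61 ± 0.47, adjusted p = 0.023), and Clrn3, a clarin-family protein, by 2.44 ± 0.34 and -0.05 ± 0.34 (2.49 ± 0.48, adjusted p = 0.028).

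**Figure D5:**
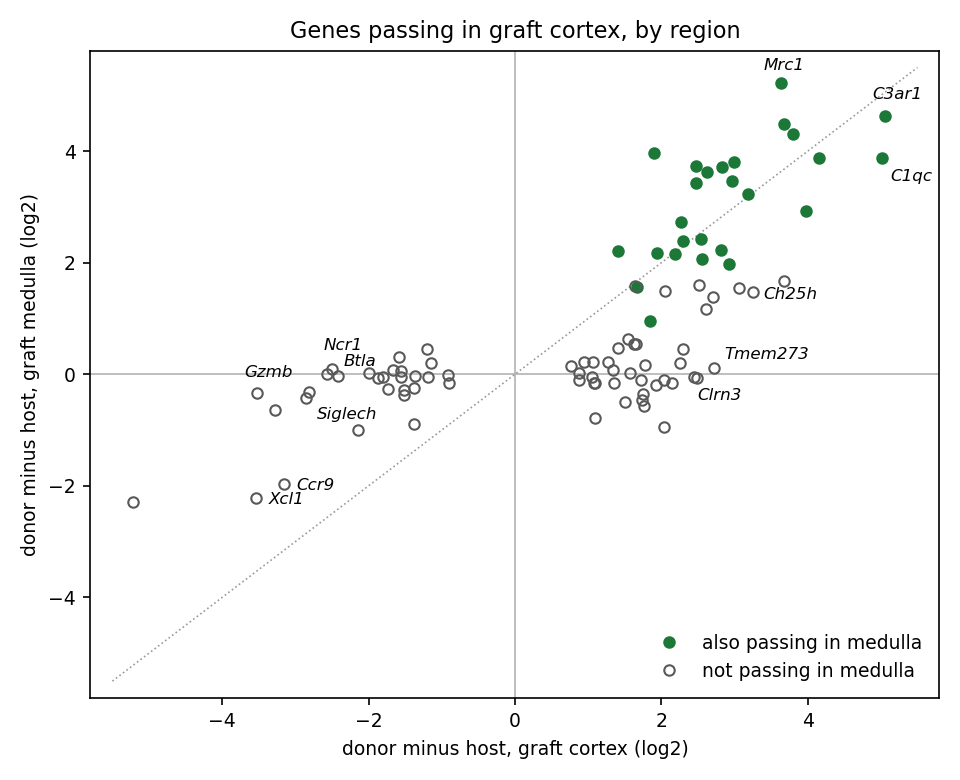
Donor minus host difference (log2) in graft cortex (x axis) against that in graft medulla (y axis) for the 95 genes that passed in the cortex; filled green points also passed in the medulla, open points did not, and the dotted line marks equal differences. Points right of 0 include 26 filled ones, and the 29 points left of 0 are all open.

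Donor and host cells differ in strain as well as in origin, so the cortex difference was set beside the strain difference of homeostatic cortex. There 1470 genes (10.3%) differed between BALB/c and C57BL/6, 1193 higher in BALB/c (8.33%) and 277 lower (1.93%). These arrays also differed by strain over all probesets. Medians were 7.731 to 7.866 in BALB/c and 7.639 to 7.692 in C57BL/6, and SDs 1.504 to 1.64 and 1.713 to 1.782. After a second quantile normalization 807 genes passed (631 higher), and with a stricter filter 436 (281 higher). How much of the strain count goes with this array-wide difference was not tested. Of the 66 donor-high genes, 1 was higher in BALB/c (Ifi202b) and 1 lower (C5ar1); of the 29 donor-low genes, 1 was lower in BALB/c (Btla) and 1 higher (Gm14207). Gm14207 was named after its values were seen. Btla was at 8.06 ± 0.26 in BALB/c and 9.47 ± 0.46 in C57BL/6 (SD, n = 4 each; -1.41, adjusted p = 0.0076). C5ar1 went the other way, at 8.42 ± 0.59 in BALB/c and 10.65 ± 0.32 in C57BL/6 (-2.22, adjusted p = 0.0026), although it was higher in donor cells of the graft. Subtracting the strain difference from that of donor and host cells, and testing the result, gave 243 genes that passed (1.70%), 88 higher (0.614%) and 155 lower (1.08%). This value was 5.31 ± 0.35 for C1qc (adjusted p = 3.8e-09), 5.18 ± 0.41 for C3ar1 (adjusted p = 1e-07), -3.77 ± 0.71 for Gzmb (adjusted p = 0.0099) and -3.61 ± 0.81 for Siglech (adjusted p = 0.027). For Ifi202b it was -0.66 and did not pass (adjusted p = 0.67), so its graft difference was not shown to exceed that of the strains. With the stricter filter 82 genes passed this subtracted test, 54 higher and 28 lower, so the excess of lower genes depended on the filter. After the second quantile normalization 74 passed, 40 higher and 34 lower. The subtracted test takes in the array-wide difference between the strains given above.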

How the data were processed

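Cells sorted from kidneys were measured on 28 one-colour Affymetrix arrays after amplification of their RNA. The deposited values are log2 signals, for which the submitters' processing notes name RMA and oligo but no version that could be used here. RMA adjusts arrays towards a shared distribution, which can hide a change common to most genes, and low signals are compressed. The deposited arrays still differed over all probesets. Donor cortex replicate 1 had a median of 7.60 and an SD of 1.84, and BALB/c medulla replicate 1 had 7.88 and 1.46. Of 22549 probesets, 20646 carried 1 gene symbol, 551 several and 1352 none in the platform annotation. Of the first, 20596 were found by gene ID in the RefSeq gene table, and where a gene had several (810 genes) the brightest was kept, giving 19272 genes. A gene was tested if it exceeded its array's 40th percentile in at least 3 arrays (14325 genes).

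One limma (3.58.1, R 4.3.3) fit took a mean per group over all 28 arrays and mouse number as a random block (consensus correlation 0.134), then moderated variances and Benjamini-Hochberg adjustment over all genes tested. Fits without an array kept that correlation. Deviations of donor and host cortex arrays from their group means had correlations of 0.275, 0.117 and 0.269 within grafts and -0.248 to 0.025 between. Such deviations cancel over the arrays of a group, so the values between grafts are no independent baseline. The pairing rests on the labels, which give the shared mouse number. Titles of the samples call replicates biological. Precision is limited by how few arrays each group has.

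Named genes were the 14 highest and 14 lowest passing differences without overlap or sign change (leaving out predicted genes, pseudogenes, small RNAs and olfactory receptors), up to 4 passing members of each list, or of a list with none its 2 largest as values, the sort and strain genes, and 6 a direction of each difference of differences. Olfr164, Gm14207, Trim12a and list members that did not pass (C1qb, Mertk, Maf, Cd81, Ccr2, Prf1, Tcf4, Cxcl9, Clec9a, Mki67) were named after their values were seen. The members and lists were chosen with earlier results of these data known.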

Additional observations from a re-analysis of the deposited data

Results flagged for a closer look

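The donor-host difference of the cortex minus that of the medulla, tested as an interaction, was high for Dcdc2a (3.37, adjusted p = 0.023), Tmem223 (2.68, adjusted p = 0.042), Tmem273 (2.61), Clrn3 (2.49), Mrpl9 (1.87, adjusted p = 0.0083) and Pfkl (1.79, adjusted p = 0.0081). Dcdc2a differed by 1.81 ± 0.43 in the cortex and -1.56 ± 0.43 in the medulla, neither of which passed alone (adjusted p = 0.056 and 0.14). The same interaction was low for Gatm (-4.64, adjusted p = 4.3e-06), Cd52 (-3.20, adjusted p = 0.028), Lcp1 (-2.92, adjusted p = 0.00013), Dab2 (-2.58, adjusted p = 0.0021), Btla (-2.57) and Hspb8 (-2.02). Gatm, an enzyme of creatine synthesis in proximal tubule, stood at 12.34 ± 0.19 in donor and 12.15 ± 0.29 in host cells of the cortex, against 10.89 ± 1.14 in donor and 6.06 ± 0.25 in host cells of the medulla (SD, n = 3 each). Lcp1, a leukocyte actin-bundling protein, stood at 12.79 ± 0.12 in donor and 12.42 ± 0.40 in host cells of the cortex, against 12.26 ± 0.78 in donor and 8.97 ± 0.43 in host cells of the medulla.

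In the cortex, the difference of donor and host cells less that of the strains was high for C1qc (5.31), C3ar1 (5.18), Adgre1 (4.74, adjusted p = 0.00012), Gins1 (4.47, adjusted p = 0.025), C5ar1 (4.42, adjusted p = 0.00056) and Klra2 (4.38, adjusted p = 0.0083), and low for Gzmb (-3.77), Siglech (-3.61), Ncr1 (-3.54, adjusted p = 0.0049), Gria3 (-2.62, adjusted p = 0.030), Nkg7 (-2.55, adjusted p = 0.036) and Hspb8 (-2.41, adjusted p = 7.1e-05). Ncr1 and Gria3 entered the test only through the host cortex arrays. Gins1 and Klra2 did not pass in the donor-host comparison itself (2.80 ± 0.71 and 2.21 ± 0.59, adjusted p = 0.088 and 0.11). For H2-Ea it was -4.92 (adjusted p = 0.00048), since BALB/c exceeded C57BL/6 by 6.51 in homeostatic cortex and donor exceeded host cells by 1.59 in graft cortex.

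Among 36 genes, each looked at in 2 homeostatic groups of 4 arrays (72 cases), 1 array lay far from the rest in 3 cases, and chance gives about 1 case in 20: the highest Itgax array of BALB/c cortex, at 11.85, the highest Adgre1 array of C57BL/6 cortex, at 12.55, and the highest Cd8a array of C57BL/6 cortex, at 9.28.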

How the results depend on the processing

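The values below give the number of genes that passed under another setting. For donor minus host in graft cortex (95) it was 266 with array weights, 53 after a second quantile normalization, 60 with a stricter filter, 48 with the replicate block as a fixed term, 4 from the 6 arrays with no replicate block and 0 with it (896 at an unadjusted p under 0.05). It was 71 to 127 without 1 array and 151 (90 higher, 61 lower) without both arrays of graft 3, an alternative chosen after seeing the data. Without donor replicate 1 only 8 were lower, without host replicate 3 72 were lower, and without donor replicate 3 102 were higher. For the medulla (100) the counts were 335 with array weights, 66 with the fixed replicate block, 1 from its own arrays with no replicate block and 0 with it (968 at an unadjusted p under 0.05), and 64 to 162 without 1 array, the ends being the loss of donor medulla replicates 3 and 2. For the strain difference (1470) they were 2679 with array weights, 659 from the homeostatic cortex arrays alone, 4052 with no filter, 807 after the second normalization, 436 with the stricter filter and 624 to 1766 without 1 array, with 624 to 670 without BALB/c cortex replicate 3 or 4 or C57BL/6 cortex replicate 1 or 2. For the difference between regions (18) they were 104 with array weights, 1 and 0 from its own arrays (763 at an unadjusted p under 0.05 with the block), 11 with no replicate block, 5 with the fixed replicate block, 8 after the second normalization, 54 without both cortex arrays of graft 3 and 8 to 47 without 1 array, the ends being the loss of donor and host medulla replicate 3. For the donor-host minus the strain difference (243, of which 88 higher) they were 2392 with array weights (478 higher), 37 from its own arrays (29 higher), 979 with no filter (147 higher), 111 with no replicate block (49 higher), 74 after the second normalization (40 higher), 82 with the stricter filter (54 higher) and 58 to 684 without 1 array, the highest without donor cortex replicate 3 and the lowest without donor cortex replicate 1 or BALB/c cortex replicate 4. The stricter filter tests fewer genes and the own-array fits use fewer arrays; the cause of the other changes was not tested.

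For the 48 named genes that passed, 619 of 855 values under alternatives still passed and 236 did not. No difference changed sign, but this could hardly have come out otherwise. Several settings alter only the variance or the genes tested and leave the difference as it was. The highest and lowest genes were also chosen for 1 sign in all grafts. Among 648 list medians, 58 moved by over 1 SD. Signals near background limit low genes, whose differences array compression understates.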
